A study of Mus musculus with 37 samples.

Results

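The wild-type (WT) mouse mammary gland at day 15 of pregnancy was set against the WT gland of nulliparous mice, gene by gene. WT P15 glands came from FVB mice of the PTP1B WT genotype at pregnancy day 15, and WT P0 glands from nulliparous FVB mice of the same genotype in oestrus. The members were the 4 arrays titled WT P15 and the 4 titled WT P0, 8 of the 37 arrays of the series, chosen by their titles and not by any measured value. The other arrays were WT and PTP1B knockout (KO) glands of the same strain at other days of pregnancy, and KO P15 and KO P0 glands (4 arrays each) were used here to compare the change between genotypes. The PTP1B line had been backcrossed to FVB for at least 7 generations, females were mated at 12 weeks of age, and no treatment was given. Nulliparous females were judged to be in oestrus by a vaginal plug after a night with a male, so P0 glands had also been exposed to mating. The labels do not say whether the 4 glands of a group came from separate animals, so p-values measure the spread between these samples. Each value is the log2 intensity of a probe set on an Affymetrix whole-transcript array, so a difference of 1 is 1 step on the log2 scale. A gene was called where its limma p, adjusted over the 16865 genes tested, was under 0.05, and errors of differences are standard errors (SE) of that fit.

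The resting mammary gland is a sparse tree of epithelial ducts in a pad of fat cells. In pregnancy, progesterone drives side branching and the growth of alveoli, and prolactin, acting through JAK2 and STAT5, turns alveolar cells into milk-making cells. From mid to late pregnancy these cells make milk protein and lipid and seal their junctions, while the fat pad gives way to epithelium. PTP1B, the product of Ptpn1, is a tyrosine phosphatase that acts on JAK2, the insulin receptor and other kinases.

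Of the 16865 genes tested, 3641 (21.6%) were higher and 4597 (27.3%) were lower in WT P15 than in WT P0 glands, so that 48.8% of the genes passed the test. The change was over 1 on the log2 scale for 696 of the genes called higher (4.13% of those tested) and below -1 for 816 of those called lower (4.84%). Of the called genes, 127 rose by over 2 log2 units and 86 fell by over 2. The groups did not overlap, that is, all 4 P15 arrays lay on one side of all 4 P0 arrays, for 6410 genes (38%). The median difference over all genes tested was -0.06. Array medians lay between 6.76 and 6.79 in WT P15 and between 6.56 and 6.60 in WT P0 glands, so centring each array on its median lowers every difference by 0.19. The split of calls depended on this: 44.2% of calls were higher on the deposited scale and 20.9% after centring. Array medians are taken over all probe sets. On the deposited scale, probe sets with no gene named had a median difference of 0.18, and those with 1 symbol of -0.05. After centring, the median difference over the genes tested was -0.25.

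Correlations across genes between arrays of a group were 0.987 to 0.993 in WT P15 and 0.973 to 0.991 in WT P0 glands. The WT P0 group nevertheless held arrays that stand apart in marker genes. WT P0 replicate 4 had a skeletal muscle score, the mean centred log2 value of that list, of 4.85, whereas the highest of the other WT P0 arrays was 0.28 and the WT P15 arrays lay between -0.71 and -0.44. WT P0 replicate 2 had a brown adipocyte score of -1.13, within the WT P15 range of -1.33 to -0.68, while the other WT P0 arrays lay between 1.10 and 1.95. Its pan-epithelial score of 0.41 also lay within the WT P15 range of 0.32 to 0.51. WT P0 replicate 3 had a score over the B and T lymphocyte lists of 0.49. The other WT P0 arrays lay between -0.53 and -0.27 in that score, and the WT P15 arrays between -0.29 and 0.01. Values without an array are given where leaving it out ended a gene's call or moved, by over 1.5 times, a called difference or a list count above 2. The part of cell content in each result was not tested. In RNA of whole glands, fewer cells of a type and less RNA per cell cannot be told apart. Ptpn1 read 8.61, 8.02, 8.94 and 8.50 in WT P15 glands and 8.70, 8.75, 9.06 and 8.61 in WT P0 glands, with a difference of -0.26 ± 0.40 (SE, adjusted p = 0.622).

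**Figure D1:**
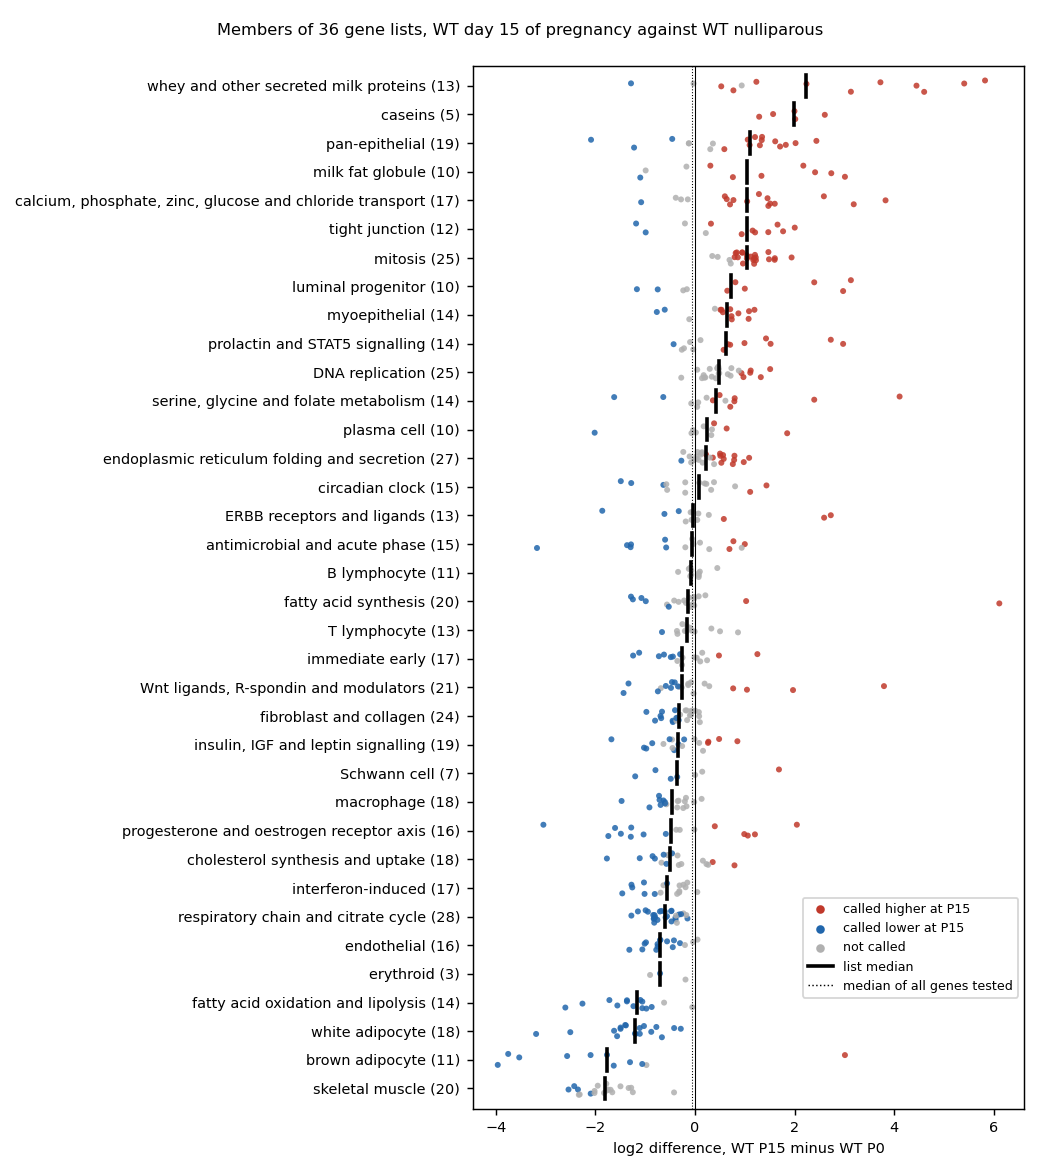
Each point is a tested member of a gene list, placed by its log2 difference (WT P15 minus WT P0), coloured by the call; black bars are list medians and numbers in brackets are members tested. Whey and other secreted milk proteins have the highest median, 2.24, and skeletal muscle and brown adipocyte lists the lowest, -1.80 and -1.77.

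All 5 casein genes, which encode the main proteins of milk, rose in WT P15 glands, against 21.6% of all genes tested. Their median difference was 1.997, against -0.06 over all genes, and the groups did not overlap for any of the 5, against 38% of all genes not overlapping. Csn2, encoding beta-casein, read 13.44, 13.47, 13.45 and 13.57 in WT P15 glands, against 10.03, 12.49, 10.63 and 12.73 in WT P0 glands. The difference was 2.01 ± 0.48 (SE, adjusted p = 0.000818). Csn1s2b, an alpha-S2-like casein, read 7.56, 8.25, 7.05 and 8.08 in WT P15 glands, against 5.13, 5.06, 5.17 and 5.16 in WT P0 glands. Its difference was 2.61 ± 0.33. The P0 arrays of Csn2 were themselves spread, from 10.03 to 12.73 with replicates 2 and 4 high, while the P15 arrays ran from 13.44 to 13.57. Csn1s1, Csn1s2a and Csn3 rose by 1.57 ± 0.33, 1.997 ± 0.57 and 1.29 ± 0.18. The highest value anywhere in the deposited table was 13.71, so P15 values of Csn2 lay at the top of the scale of these arrays and sizes of change were not ranked among the caseins.

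STAT5 dimers are known to bind the palindrome TTCNNNGAA, and the bases before the start site were searched for it in promoters from RefSeq. Within the 250 bases before the start, on either strand, TTCNNNGAA occurred in 2 of the 3 casein genes that had a promoter in the table, and in 7.34% of the 13255 tested genes with one. Of the 15 genes with the largest rises, 14 had a promoter and 1, Glycam1, held the motif. The promoters of Csn2, Csn1s1 and Glycam1 are shown because they hold it, on build GRCm38.p6, 5′ to 3′ on the gene's strand and ending at the base before the start, with TTCNNNGAA in capitals.
Csn2 (chr5:87699426-87699675, minus strand): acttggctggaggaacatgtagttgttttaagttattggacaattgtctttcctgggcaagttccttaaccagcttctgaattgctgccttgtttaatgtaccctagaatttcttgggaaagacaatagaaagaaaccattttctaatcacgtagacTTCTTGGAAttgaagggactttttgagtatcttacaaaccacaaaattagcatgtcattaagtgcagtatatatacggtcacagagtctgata
Csn1s1 (chr5:87665958-87666207, plus strand): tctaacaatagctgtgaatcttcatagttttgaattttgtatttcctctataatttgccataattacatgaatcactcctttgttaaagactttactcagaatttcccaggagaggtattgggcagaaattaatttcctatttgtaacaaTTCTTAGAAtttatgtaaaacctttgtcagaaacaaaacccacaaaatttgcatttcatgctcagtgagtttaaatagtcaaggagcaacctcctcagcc
Glycam1 (chr15:103565082-103565331, minus strand): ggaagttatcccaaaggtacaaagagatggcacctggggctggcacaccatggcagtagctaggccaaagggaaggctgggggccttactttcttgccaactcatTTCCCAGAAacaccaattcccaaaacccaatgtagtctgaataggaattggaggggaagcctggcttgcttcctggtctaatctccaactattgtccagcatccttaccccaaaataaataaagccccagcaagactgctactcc
The match began 93 bases before the start of Csn2, 100 before that of Csn1s1 and 145 before that of Glycam1. No binding was measured, and a match describes these letters alone.

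Genes for whey and other secreted milk proteins moved with the caseins: 10 of 13 tested rose (76.9%, against 21.6% of all genes tested) and 1 fell. Their median was 2.24, and 11 of the 13 had groups that did not overlap, against 38% of all genes tested. Wap, encoding whey acidic protein, read 13.29, 13.48, 13.16 and 13.45 in WT P15 glands, against 7.10, 7.22, 6.84 and 8.93 in WT P0 glands. The difference was 5.82 ± 0.65 (adjusted p = 1.73e-08), and replicate 4 was the highest P0 array. The P15 values of Wap, like those of Csn2, lay near the 13.71 that was the highest value of the table, and whether the scale limits this difference was not tested. Glycam1, a mucin-like protein of milk, read 12.97, 13.001, 12.91 and 12.98 in WT P15 glands, against 5.30, 6.45, 9.58 and 8.91 in WT P0 glands. The P15 arrays were nearly equal, and the P0 arrays ran from 5.30 to 9.58 (5.41 ± 1.04). Pigr, the receptor that carries IgA across epithelium into milk, rose by 4.60 ± 0.33, and Cel, the bile salt-stimulated lipase of milk, by 4.45 ± 0.56. Lao1, an L-amino acid oxidase, and Lpo, lactoperoxidase, both antibacterial enzymes of milk, rose by 3.72 ± 0.53 and 3.13 ± 0.22. Slpi, a secreted inhibitor of leukocyte proteases, was the member that fell, by 1.29 ± 0.36 on the log2 scale (adjusted p = 0.00382).

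**Figure D2:**
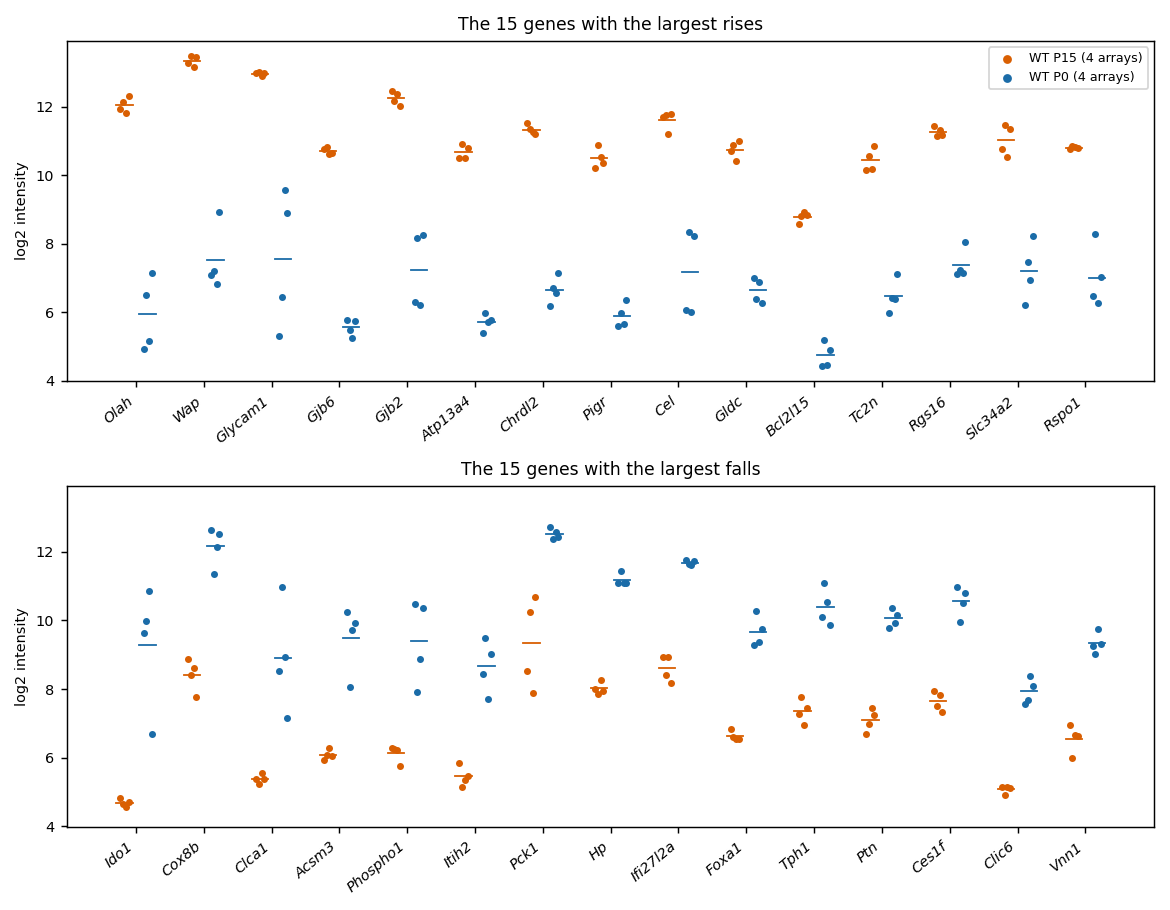
Log2 intensity of each WT P15 and WT P0 array for the 15 genes with the largest rises (above) and the 15 with the largest falls (below) among called genes whose groups do not overlap; bars are group means of 4 arrays. Wap sits between 13.16 and 13.48 at P15 and between 6.84 and 8.93 at P0, and Ido1 between 4.55 and 4.83 at P15 and between 6.67 and 10.87 at P0.

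Genes that package milk fat rose, with 7 of 10 tested higher (70%, against 21.6% of all genes tested). The number lower was 1 (10%, against 27.3%), and the median was 1.05. Btn1a1, encoding butyrophilin, read 12.04, 12.23, 11.88 and 12.11 in WT P15 glands, against 8.99, 10.66, 9.87 and 10.04 in WT P0 glands (2.17 ± 0.33). Xdh, whose product joins butyrophilin on the fat globule membrane, rose by 1.33 ± 0.12, and the mucins Muc1 and Muc15 by 2.41 ± 0.28 and 2.74 ± 0.38. Fabp3, a fatty acid carrier of milk-making cells and also of brown fat and muscle, read 12.68, 12.84, 12.55 and 12.83 in WT P15 glands, against 11.46, 6.56, 10.08 and 10.78 in WT P0 glands. Its P0 arrays split, replicate 2 being the low one. The difference was 3.01 with all arrays and 1.96 without WT P0 replicate 2 (limma adjusted p = 0.0121), and its other probe set gave 1.90 with all arrays. Dgat1, which makes triglyceride, was the member that fell, by 1.10 ± 0.24 on the log2 scale, with replicate 2 again apart in P0 (10.09, against 11.41 to 11.61 in the others) and a difference of -1.45 without it.

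The gene with the largest rise of all was Olah, the thioesterase II that releases medium-chain fatty acids from fatty acid synthase in the lactating gland. Olah read 11.92, 12.14, 11.82 and 12.32 in WT P15 glands, against 4.93, 6.52, 5.17 and 7.15 in WT P0 glands, a 69.1-fold difference (6.11 ± 0.53, adjusted p = 1.55e-10). The fatty acid synthesis list that holds it had 2 of 20 tested higher (10%) and 5 lower (25%), with a median of -0.15, and the share lower was near the 27.3% of all genes tested. Elovl1, an elongase of saturated chains, was the other member that rose, by 1.03 ± 0.11. Acacb and Gpam were among the members that fell, by 1.25 ± 0.35 and 0.99 ± 0.20 on the log2 scale. The number of falls depended on WT P0 replicate 2, whose list score of -0.74 was the lowest of the 8 arrays: without it 11 of the 20 were called lower and the median was -0.52, and without WT P15 replicate 4 the number lower was 3. Of 18 tested genes of cholesterol synthesis and uptake, 7 fell (38.9%, against 27.3% of all genes tested) and 2 rose, with a median of -0.50. Hmgcs1, the enzyme that makes HMG-CoA, read 9.41, 8.96, 9.22 and 8.55 in WT P15 glands, against 10.64, 10.93, 10.77 and 10.88 in WT P0 glands (-1.77 ± 0.23). Hsd17b7, a later enzyme of that pathway that also makes oestradiol, rose by 0.79 ± 0.16.

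Transporters that supply milk rose together, 13 of 17 tested being higher (76.5%, against 21.6% of all genes tested). The number lower was 1 (5.88%, against 27.3%), and the median was 1.05. Slc34a2, a sodium-phosphate cotransporter of the apical membrane, read 10.78, 11.46, 10.54 and 11.36 in WT P15 glands, against 6.21, 7.46, 6.94 and 8.23 in WT P0 glands (3.83 ± 0.38). Atp2c2, the Golgi calcium pump SPCA2, rose by 3.19 ± 0.23, and Orai1, the store-operated calcium channel, by 1.51 ± 0.12. Slc30a2, which loads zinc into vesicles, rose by 1.60 ± 0.12, and Slc2a1, the glucose transporter GLUT1, by 1.47 ± 0.14. Slc7a5, a large neutral amino acid transporter, rose 6.01-fold (2.59 ± 0.23, adjusted p = 1.83e-10).

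Both connexins among the largest rises, Gjb2 (connexin 26) and Gjb6 (connexin 30), form gap junctions between alveolar cells. Gjb6 read 10.77, 10.83, 10.63 and 10.66 in WT P15 glands, against 5.77, 5.48, 5.25 and 5.75 in WT P0 glands. Gjb2 rose by 5.03 ± 0.52 and Gjb6 by 5.16 ± 0.44. Gldc, the glycine decarboxylase of the mitochondrial glycine cleavage system, read 10.70, 10.88, 10.42 and 10.99 in WT P15 glands, against 7.02, 6.39, 6.89 and 6.27 in WT P0 glands. It had the smallest p of the largest rises (4.11 ± 0.18, adjusted p = 1.08e-16). In the list of serine, glycine and folate metabolism, 7 of 14 tested rose (50%, against 21.6% of all genes tested) and 2 fell. Shmt2 and Shmt1, the serine hydroxymethyltransferases, rose by 0.80 ± 0.15 and 0.71 ± 0.14, and Folr1, a folate receptor, rose by 2.39 ± 0.22. Aldh1l1 was among those that fell, with a difference of -1.62. Without WT P15 replicate 1, WT P0 replicate 1 or WT P0 replicate 3, 4 members were called higher. Atp13a4, a P5-type ATPase, Chrdl2, a secreted BMP antagonist, and Rgs16, a regulator of G protein signalling, rose by 4.96 ± 0.24, 4.68 ± 0.35 and 3.87 ± 0.25. The BCL2-family gene Bcl2l15 rose by 4.04 ± 0.36 and Tc2n, a gene of tandem C2 domains, by 3.96 ± 0.28.

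The list of endoplasmic reticulum folding and secretion had 12 of 27 tested higher and 1 lower, with a median of 0.22, against 21.6% of all genes higher. Among the 12 that rose were genes of the translocon, of a vesicle coat and of transcription. Sec61a1, the channel of the translocon, read 12.44, 12.27, 12.33 and 12.26 in WT P15 glands, against 11.35, 11.77, 11.63 and 11.40 in WT P0 glands (0.79 ± 0.08). Ssr4 and Ssr2 of the translocon-associated complex rose by 0.98 ± 0.09 and 0.79 ± 0.09, and Sec23b of the COPII vesicle coat by 1.09 ± 0.10. Xbp1, a transcription factor of secretory cells, rose by 0.58 ± 0.09. After centring each array, 10 members were higher, 5 lower and the median was 0.03.

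Prolactin and STAT5 signalling had 8 of 14 tested members higher (57.1%, against 21.6% of all genes tested) and 1 lower (7.14%, against 27.3%). The median was 0.62, and 0.65 with the same counts without WT P0 replicate 2. Elf5, an Ets factor of alveolar cells, read 11.74, 12.09, 11.96 and 11.996 in WT P15 glands, against 7.94, 10.13, 8.42 and 9.40 in WT P0 glands (2.97 ± 0.33, adjusted p = 1.16e-08). Stat5a rose by 0.99 ± 0.10, Cish, a feedback inhibitor and target of STAT5, by 1.52 ± 0.28, and Id2, a helix-loop-helix inhibitor needed for alveoli, by 1.43 ± 0.19. Erbb4, a neuregulin receptor that works with STAT5, read 8.51, 8.88, 8.97 and 9.09 in WT P15 glands, against 5.97, 6.25, 6.28 and 6.04 in WT P0 glands (2.73 ± 0.27). Among the 13 ERBB receptors and ligands tested, 3 rose and 3 fell (23.1% each), near the shares of all genes tested. The neuregulins moved apart: Nrg1 rose by 2.59 ± 0.26, and Nrg4, a neuregulin made by brown fat, fell by 1.86 ± 0.37 on the log2 scale. Tgfa and Btc, ligands of the EGF receptor, fell by 0.33 ± 0.09 and 0.61 ± 0.14.

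In the axis of the progesterone and oestrogen receptors, 8 of 16 tested genes fell (50%, against 27.3% of all genes tested) and 5 rose (31.2%, against 21.6%), with a median of -0.48. Foxa1, the pioneer factor of oestrogen receptor binding, read 6.84, 6.60, 6.53 and 6.55 in WT P15 glands, against 9.28, 10.29, 9.38 and 9.76 in WT P0 glands. Its fall was 8.25-fold (-3.04 ± 0.20, adjusted p = 8.11e-13), and the P15 arrays lay close together. Esr1, the oestrogen receptor, fell by 1.29 ± 0.16 on the log2 scale, Fgfr2, an FGF receptor, by 1.74 ± 0.20, and Cited1, a cofactor of the oestrogen receptor, by 1.61 ± 0.28. Pgr, the progesterone receptor, named here after its values were seen, read 6.61, 6.84, 7.06 and 7.05 in WT P15 glands, against 7.88, 9.25, 8.62 and 6.94 in WT P0 glands (-1.28 ± 0.29). Its groups overlapped through WT P0 replicate 4. Tnfrsf11a, encoding RANK, the receptor for the progesterone target RANKL, rose by 2.04 ± 0.17, with all P15 arrays at 9.76 to 10.01 and all P0 arrays at 7.28 to 8.53.

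Markers of epithelium rose in WT P15 glands, where 21.6% of all genes tested were higher and 27.3% lower. Of 19 pan-epithelial genes tested, 12 were higher (63.2%) and 3 lower (15.8%), with a median of 1.10. Without WT P0 replicate 2, 14 were higher and 2 lower, with a median of 1.37. Ehf, an Ets factor of epithelia, read 11.16, 11.59, 11.54 and 11.36 in WT P15 glands, against 7.95, 10.00, 8.77 and 9.19 in WT P0 glands (2.44 ± 0.29). The epithelial splicing factors Esrp1 and Esrp2 rose by 1.82 ± 0.24 and 2.02 ± 0.19. Prom1, a membrane protein of the hormone-sensing luminal cells of the mouse gland, went the other way and fell by 2.09 ± 0.19 on the log2 scale. Of 10 luminal progenitor genes, 6 rose (60%) and 2 fell (20%). Among them were Slc28a3, a nucleoside transporter (3.13 ± 0.30), Kit (0.81 ± 0.19) and Tspan8 (-1.17 ± 0.35). The call of Tspan8 was lost without WT P0 replicates 2 and 4. Myoepithelial genes, of the contractile basal cells, had 10 of 14 higher (71.4%) and 2 lower (14.3%), with a median of 0.63. Cnn1, a calponin, rose by 1.19 ± 0.22, Myh11, a smooth muscle myosin, by 1.08 ± 0.18 and Krt14, a basal keratin, by 1.08 ± 0.24. Tight junction genes had 8 of 12 higher (66.7%) and 2 lower (16.7%), with a median of 1.05, and 9 higher with a median of 1.22 without WT P0 replicate 2. Tjp3, the scaffold ZO-3, rose by 2.002 ± 0.22, Ocln, occludin, by 1.77 ± 0.20 and Cldn8 by 1.66 ± 0.29, while Cldn10 fell by 1.18 ± 0.16 on the log2 scale.

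Genes of mitosis were higher in WT P15 glands. Of 25 tested, 21 rose (84%, against 21.6% of all genes tested) and none fell, with a median of 1.04. Groups did not overlap for 13 of the 25, against 38% of all genes tested. Ccna2, cyclin A2, read 10.05, 9.63, 10.28 and 9.86 in WT P15 glands, against 7.06, 9.06, 7.37 and 8.58 in WT P0 glands (1.94 ± 0.48, adjusted p = 0.00134). Mki67, the proliferation antigen, read 9.32, 9.35, 9.77 and 9.23 in WT P15 glands, against 7.07, 8.92, 7.28 and 8.002 in WT P0 glands (1.60 ± 0.41). For both genes WT P0 replicates 1 and 3 were low and replicates 2 and 4 were higher. The number of members called depended on those low arrays, with 9 called higher without WT P0 replicate 1, 11 without WT P0 replicate 3 and 13 without WT P15 replicate 3, while the median lay between 0.92 and 1.30 with any 1 of the 8 arrays left out. Kif11, a spindle motor, and Bub1, a spindle checkpoint kinase, rose by 1.60 ± 0.47 and 1.49 ± 0.46. Genes of DNA replication had 6 of 25 tested higher and none lower (median 0.48). That is 24%, near the 21.6% of all genes tested, and the number was 15 without WT P0 replicate 2. Rrm2, a subunit of ribonucleotide reductase, and Fen1, a flap nuclease, were among the 6, at 1.51 ± 0.44 and 1.12 ± 0.22.

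Mitotic genes are known to carry CCAAT boxes, bound by NF-Y, and the cell cycle homology region TTTGAA. Within the 250 bases before the start, on either strand, CCAAT occurred in 16 of the 20 mitosis genes with a promoter in the table (80%), against 38.9% of tested genes with one. TTTGAA occurred in 9 of the 20 (45%), against 13.6%, and both occurred in 8 of the 20 (40%), against 5.97%. Promoters of Mki67 and Kif11 are shown as named members that hold both, on build GRCm38.p6 and 5′ to 3′ on the gene's strand, with CCAAT or ATTGG and TTTGAA or TTCAAA in capitals. None of these matches overlapped another.
Mki67 (chr7:135716380-135716629, minus strand): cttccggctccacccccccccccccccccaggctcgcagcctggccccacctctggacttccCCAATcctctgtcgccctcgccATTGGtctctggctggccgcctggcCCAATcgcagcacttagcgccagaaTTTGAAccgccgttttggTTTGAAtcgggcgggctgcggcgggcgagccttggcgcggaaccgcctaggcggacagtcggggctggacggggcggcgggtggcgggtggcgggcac
Kif11 (chr19:37376132-37376381, plus strand): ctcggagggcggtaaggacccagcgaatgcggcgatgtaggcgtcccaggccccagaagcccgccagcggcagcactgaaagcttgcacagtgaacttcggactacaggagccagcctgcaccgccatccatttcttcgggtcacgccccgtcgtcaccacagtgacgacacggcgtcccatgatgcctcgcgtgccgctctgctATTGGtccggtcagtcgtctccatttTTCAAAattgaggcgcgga
Mki67 had 5 matches in this window and Kif11 had 2.

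All 18 white adipocyte genes tested fell in WT P15 glands, against 27.3% of all genes tested, with a median of -1.20. Of the 18, 16 had groups that did not overlap, against 38% of all genes tested. Pck1, which makes glycerol phosphate for triglyceride in fat cells, read 8.53, 10.25, 7.90 and 10.68 in WT P15 glands, against 12.72, 12.38, 12.58 and 12.44 in WT P0 glands (-3.19 ± 0.50). Here the P15 arrays were the more spread, replicates 2 and 4 being the higher. Plin1, the perilipin of the fat droplet, read 11.22, 10.94, 10.80 and 10.89 in WT P15 glands, against 12.65, 12.31, 12.48 and 12.38 in WT P0 glands (-1.49 ± 0.15). Cidec, which fuses fat droplets, fell by 1.50 ± 0.12 on the log2 scale, Aqp7, a glycerol channel, by 1.63 ± 0.24, and Acvr1c, the activin receptor ALK7, by 2.50 ± 0.24. Without WT P0 replicate 2, 17 of the 18 were lower.

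Brown adipocyte genes fell further but less evenly: 9 of 11 were lower (81.8%, against 27.3% of all genes tested) and 1, Fabp3, was higher. Their median was -1.77, and 6 of the 11 had groups that did not overlap, against 38% of all genes tested. Ucp1, the uncoupling protein of heat production, read 7.94, 7.20, 7.88 and 5.94 in WT P15 glands, against 12.76, 7.84, 11.84 and 12.37 in WT P0 glands (-3.96 ± 1.18, adjusted p = 0.00628). WT P0 replicate 2 was as low as the P15 arrays, while the other P0 arrays lay between 11.84 and 12.76. Cox8b, a cytochrome oxidase subunit of brown fat and muscle, read 8.86, 8.42, 8.60 and 7.78 in WT P15 glands, against 12.64, 11.36, 12.16 and 12.52 in WT P0 glands (-3.75 ± 0.43). Elovl3, an elongase of brown fat, gave -3.53 ± 1.10 with the same low array. Without WT P0 replicate 2 the difference was -5.08 for Ucp1 and -4.82 for Elovl3, the median of the list was -2.17 and 10 of the 11 were lower.

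Transcripts for fat oxidation and respiration were lower in WT P15 glands. Of 14 genes of fatty acid oxidation and lipolysis tested, 12 were lower (85.7%, against 27.3% of all genes tested) and none higher (median -1.17). Of 28 genes of the respiratory chain and citrate cycle, 24 were lower (85.7%) and none higher (median -0.60). Pdk4, a kinase that holds back pyruvate dehydrogenase, read 8.49, 10.22, 8.40 and 10.48 in WT P15 glands, against 12.34, 11.61, 11.85 and 12.21 in WT P0 glands (-2.60 ± 0.43). Ppara, the receptor that drives fat oxidation, fell by 2.26 ± 0.44 on the log2 scale, and Acadvl and Acadl, dehydrogenases of its first step, by 1.56 ± 0.26 and 1.37 ± 0.23. Sdhb, of succinate dehydrogenase, read 9.79, 9.62, 9.82 and 9.62 in WT P15 glands, against 11.24, 10.34, 10.80 and 11.06 in WT P0 glands (-1.15 ± 0.16). Idh3a and Uqcrfs1, of the citrate cycle and complex III, fell by 1.28 ± 0.24 and 0.99 ± 0.21. The respiratory list had scores of -0.44 to -0.34 in WT P15 glands and -0.22 in WT P0 replicate 2, against 0.19 to 0.57 in the other WT P0 glands, so it moved with the brown adipocyte score and its part in the result was not tested. Without that array all 28 were lower, with a median of -0.74.

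**Figure D3:**
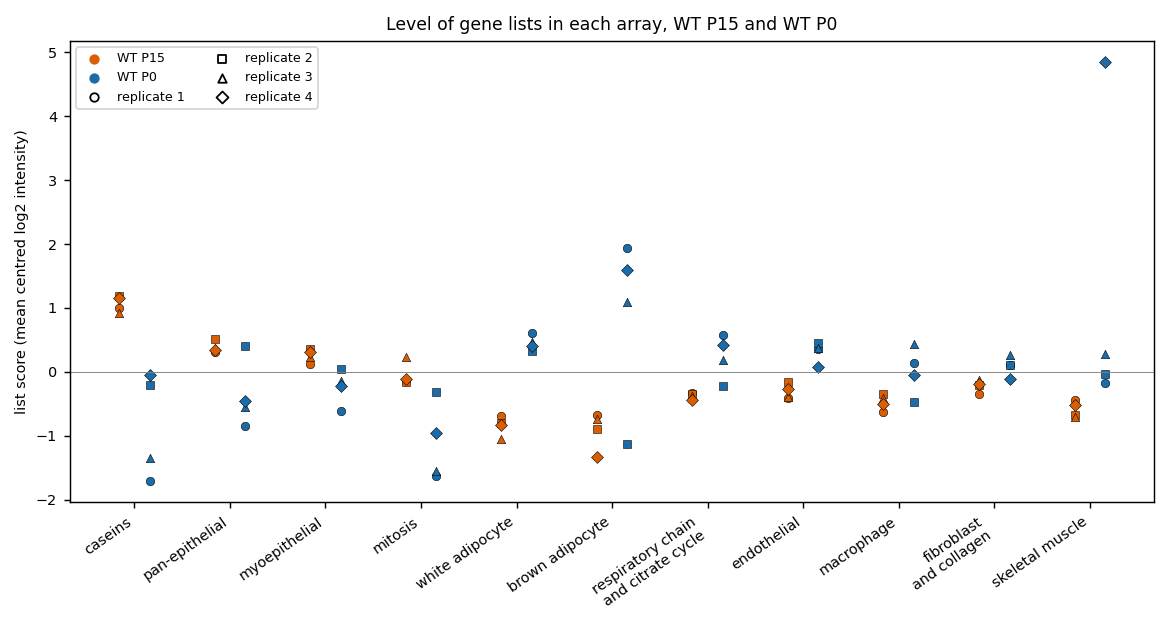
Score of 11 gene lists (mean of log2 intensities centred on each gene's mean over 37 arrays) in every WT P15 and WT P0 array, with a symbol for each replicate number. WT P0 replicate 4 stands apart in skeletal muscle (4.85) and WT P0 replicate 2 in the brown adipocyte list (-1.13).

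The skeletal muscle list, markers of a tissue next to the gland, had a median of -1.80 with 4 of 20 called lower (20%, under the 27.3% of all genes tested). All 20 differences were below 0, and 13 of the 20 had groups that did not overlap, against 38% of all genes tested. The spread of the fit also took in KO P3 and KO P7 arrays with muscle scores up to 5.18 and 2.22. The size of the median rested on WT P0 replicate 4. The other WT P0 arrays had scores of -0.18 to 0.28, also above the WT P15 range of -0.71 to -0.44. Acta1, skeletal actin, read 7.49, 7.08, 7.07 and 7.45 in WT P15 glands, against 7.92, 9.42, 8.71 and 13.20 in WT P0 glands (-2.54 ± 0.92). Without WT P0 replicate 4 the median was -0.53, 1 member was called and Acta1 was not (-1.41, limma adjusted p = 0.186). Without WT P0 replicate 1 or 2 the number called lower was 9, and without WT P15 replicate 2 or 3 it was 2.

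Among lists of stromal and immune cells, the share of members called lower ran from 0 to 81.2%, against 27.3% of all genes tested. Of 16 endothelial genes, 13 fell (81.2%) and none rose (median -0.70). Flt1, a VEGF receptor, read 8.21, 8.22, 8.39 and 8.40 in WT P15 glands, against 9.92, 9.41, 9.77 and 9.39 in WT P0 glands (-1.32 ± 0.18), and Plvap, of fenestrated endothelium, fell by 1.06 ± 0.14 on the log2 scale. Of 24 fibroblast and collagen genes, 10 fell (41.7%) and none rose (median -0.31), with 17 lower after centring. Dpt, dermatopontin, fell by 0.98 ± 0.18 and Col6a1 by 0.80 ± 0.12. Macrophage genes had 8 of 18 lower (44.4%) and none higher (median -0.47), Itgam, the integrin CD11b, falling by 1.47 ± 0.23. That count rested on single arrays, being 1 without WT P0 replicate 3, 4 without WT P15 replicate 1 or 4, 5 without WT P0 replicate 1 and 12 without WT P0 replicate 2. Of 11 B lymphocyte genes limma called none, and 0 had an unadjusted p under 0.05, the smallest being that of Blnk (0.45 ± 0.27, unadjusted p = 0.11). Blnk gained a call in 1 of 18 alternatives. Of 13 T lymphocyte genes limma called 1 lower (7.69%), Thy1, which fibroblasts share (-0.66 ± 0.17). The spread of the fit also took in KO P10 replicates 2 and 3, with scores over both lymphocyte lists of 3.38 and 3.35. It also took in WT P7 replicate 1, at 0.83, while WT P15 and WT P0 arrays lay between -0.53 and 0.49. That spread widens the errors, so the few lymphocyte calls do not show that these genes were unchanged. Plasma cell genes had 3 of 10 higher (30%, against 21.6% of all genes tested) and 1 lower (10%). Fkbp11, a chaperone of secretory cells, accounted for the largest of those rises (1.85 ± 0.18), whereas Irf4, a factor of lymphocytes and fat cells, fell by 2.02 ± 0.53. Of 3 erythroid genes, Slc4a1, the red cell anion exchanger, was the 1 called lower (-0.70 ± 0.28), a call lost without WT P15 replicate 2 or 4 and without WT P0 replicate 3 or 4 (adjusted p from 0.108 to 0.197). Of 7 Schwann cell genes 4 fell, Mbp, a myelin protein, by 0.79 ± 0.14, and Sox10, which mammary epithelium also expresses, rose by 1.69 ± 0.21.

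Interferon-induced genes had 7 of 17 lower (41.2%, against 27.3% of all genes tested) and none higher (median -0.56). Irf7, the interferon regulatory factor, read 7.43, 7.82, 7.70 and 7.58 in WT P15 glands, against 9.31, 7.93, 9.55 and 8.86 in WT P0 glands (-1.28 ± 0.32, adjusted p = 0.00134). Usp18, the protease that removes ISG15, and Ifit3, an antiviral RNA-associated protein, fell by 1.26 ± 0.34 and 1.46 ± 0.42. Without WT P15 replicate 4 or WT P0 replicate 3, 4 members were called lower. The interferon-stimulated response element holds a pair of GAAA runs with 2 bases between them, which on either strand of the 250 bases before the start occurred in 5 of the 12 list members with a promoter (41.7%), against 3.17% of tested genes with one. The promoter of Ifit3, build GRCm38.p6, is shown as a called member that holds 2 matches, in capitals, 156 and 122 bases before the start.
Ifit3 (chr19:34583279-34583528, plus strand): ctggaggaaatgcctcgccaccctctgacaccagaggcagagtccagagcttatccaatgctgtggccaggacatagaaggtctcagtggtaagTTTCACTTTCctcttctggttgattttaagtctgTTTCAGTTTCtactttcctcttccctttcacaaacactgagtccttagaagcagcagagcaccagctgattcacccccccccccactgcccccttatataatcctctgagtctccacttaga

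The largest fall of all genes was that of Ido1, which breaks down tryptophan. Ido1 read 4.83, 4.66, 4.55 and 4.71 in WT P15 glands, against 9.64, 9.99, 10.87 and 6.67 in WT P0 glands, a measured difference of -4.61 ± 0.49 (adjusted p = 6.27e-09). All 4 P15 values lay under 4.96, the 25th percentile of the table, so its level there was at the bottom of the scale. With those values set to 4.96, Ido1 was at least 20.2-fold lower in WT P15 glands. Clca1, of the family of chloride channel accessory proteins, read 5.37, 5.22, 5.55 and 5.39 in WT P15 glands, against 8.54, 10.97, 8.93 and 7.15 in WT P0 glands (-3.51 ± 0.38). Tph1, the first enzyme of serotonin synthesis, fell by 3.04 ± 0.20, and Ptn, the growth factor pleiotrophin, by 2.96 ± 0.15. Itih2, a protein that binds hyaluronan, Clic6, a chloride channel-like protein, and Vnn1, a pantetheinase, fell by 3.21 ± 0.34, 2.86 ± 0.25 and 2.78 ± 0.41. Hp, haptoglobin, read 7.9997, 7.85, 8.27 and 7.95 in WT P15 glands, against 11.10, 11.46, 11.10 and 11.10 in WT P0 glands (-3.17 ± 0.21). It belongs to the antimicrobial and acute phase list, in which 3 of 15 rose (20%, against 21.6% of all genes tested) and 6 fell (40%, against 27.3%). Lcn2, a siderophore-binding lipocalin, rose by 0.77 ± 0.18 and Orm1, an acute phase protein, fell by 1.37 ± 0.27. Ifi27l2a, an interferon-induced gene also found in fat, Ces1f, a carboxylesterase, Acsm3, an acyl-CoA synthetase, and Phospho1, a phosphatase, also fell, with differences of -3.08 ± 0.24, -2.91 ± 0.31, -3.41 ± 0.57 and -3.27 ± 0.51.

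Insulin, IGF and leptin signalling had 8 of 19 tested lower (42.1%, against 27.3% of all genes tested) and 4 higher (21.1%, against 21.6%), with a median of -0.33, the number higher being 2 without WT P15 replicate 2, WT P0 replicate 1 or WT P0 replicate 3. Grb14, an inhibitor of the insulin receptor, read 7.23, 6.89, 7.05 and 7.03 in WT P15 glands, against 8.64, 9.44, 8.43 and 8.41 in WT P0 glands (-1.68 ± 0.24). Igf1, Akt2 and Insr, a growth factor, a kinase and the insulin receptor, fell by 1.02 ± 0.15, 0.98 ± 0.11 and 0.86 ± 0.15. Among 21 Wnt ligands, R-spondins and modulators, 8 fell (38.1%) and 4 rose (19%). Rspo1, an R-spondin that enhances Wnt signals, read 10.76, 10.85, 10.84 and 10.80 in WT P15 glands, against 6.48, 8.30, 6.26 and 7.03 in WT P0 glands (3.79 ± 0.48). Its receptor Lgr4 rose by 1.97 ± 0.16, Wnt5b rose by 0.77 ± 0.14 and Wnt5a, a ligand of non-canonical Wnt signalling, fell by 1.44 ± 0.21. Immediate early genes had 7 of 17 lower (41.2%) and 2 higher, Myc rising by 1.25 ± 0.20 and Jun and Dusp1 falling by 1.24 ± 0.13 and 1.12 ± 0.19. Without WT P0 replicate 2, 4 were lower. Clock genes had 3 of 15 lower and 2 higher (20% and 13.3%, both under the shares of all genes tested), and their median of 0.09 had no settled sign, being -0.10 after centring each array and between -0.17 and 0.36 with 1 array left out. Bhlhe41 and Cry2, repressors of the clock, fell by 1.49 ± 0.20 and 0.64 ± 0.15, Cry1, another repressor, rose by 1.11 ± 0.20, and Hlf, an output factor, rose by 1.43 ± 0.20. The hour of collection is not given in the labels.

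The days between are given as differences from the same WT P0 arrays, so the values of different days are not independent. Mitosis genes had median differences of 1.83 at day 3, 1.63 at day 7, 1.41 at day 10 and 1.04 at day 15. Caseins had medians of -0.11, 0.86, 1.05 and 1.997 on those days, and whey and other secreted milk proteins -0.27, -0.11, 0.29 and 2.24. White adipocyte genes had medians of -0.16, -0.36, -0.18 and -1.20, and respiratory genes of -0.08, -0.13, -0.23 and -0.60. For Olah the difference from WT P0 was -0.31 at day 3, 2.20 at day 7, 3.87 at day 10 and 6.11 at day 15, and for Lao1 it was -2.13, -1.58, 0.82 and 3.72. Ido1 read 4.56 to 4.89 at day 3, 4.65 to 4.86 at day 7 and 4.47 to 4.91 at day 10, all under 4.96 as at day 15, so levels among these days could not be ordered. Days 3 and 10 had 3 arrays each and day 7 had 4.

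**Figure D4:**
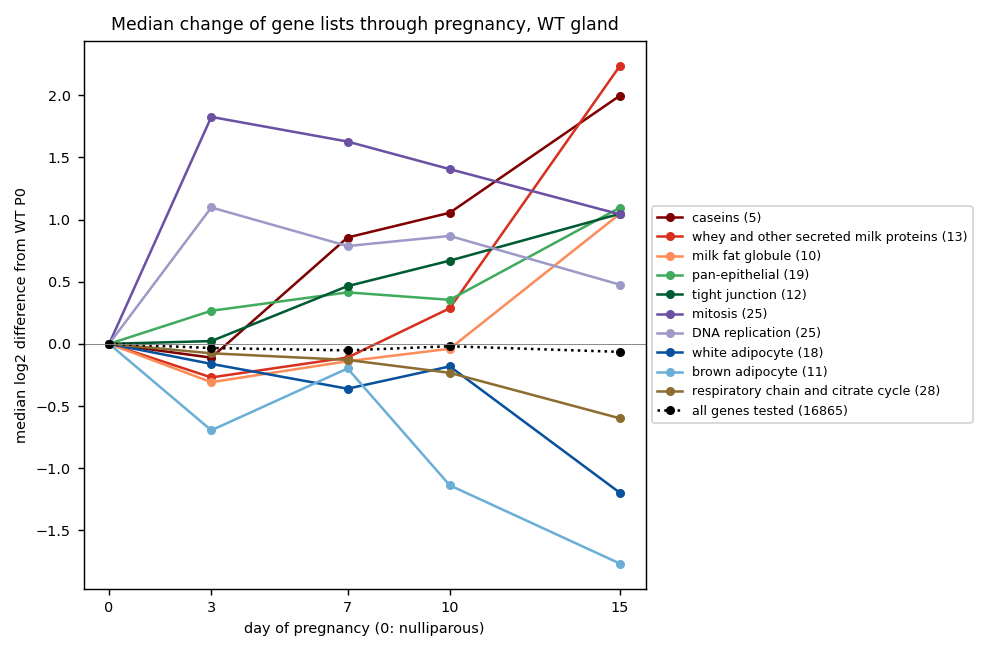
Median log2 difference from WT P0 of 10 gene lists and of all genes tested, at days 3, 7, 10 and 15 of pregnancy in WT glands; numbers in brackets are members tested and all days share the P0 arrays. Mitosis genes are highest at day 3 (1.83), and whey and other secreted milk proteins are highest at day 15 (2.24).

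In KO glands, the same comparison (4 KO P15 and 4 KO P0 arrays) called 3287 genes higher (19.5%) and 3675 lower (21.8%). Genes higher in both genotypes numbered 2243, which is 61.6% of those higher in WT and 68.2% of those higher in KO glands. Genes lower in both numbered 2522, which is 54.9% of those lower in WT and 68.6% of those lower in KO glands, and 118 genes were called in opposite directions. The difference of the 2 changes, WT minus KO, was called for 1704 genes (10.1%), 894 (5.3%) with a more positive change in WT and 810 (4.8%) with a more negative one. The array labelled KO P15 replicate 3 read 8.68 for Ptpn1, a level of WT arrays, and without it 1616 genes were called. Without WT P0 replicate 2 the count was 2598.

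For the caseins limma called none of the 5 differences between genotypes (1 without KO P0 replicate 4, KO P15 replicate 3, WT P0 replicate 2 or WT P15 replicate 2), with 1 of them at an unadjusted p under 0.05, and their median was 1.997 in WT and 1.63 in KO glands. Wap rose by 5.82 ± 0.65 in WT and 6.03 ± 0.65 in KO glands (difference -0.21 ± 0.92). WT P15 values of Wap and Csn2 lay near 13.71, the highest value of the table. Whether the top of the scale limits their genotype differences was not tested. The respiratory chain and citrate cycle had a median of -0.60 in WT and -0.05 in KO glands and 10 of 28 differences called, against 10.1% of all genes tested. That number rested on single arrays, being 22 without WT P0 replicate 2, 5 without WT P0 replicate 1 or 4, and 6 without WT P15 replicate 4 or KO P0 replicate 2. Sdhb changed by -1.15 ± 0.16 in WT and -0.14 ± 0.16 in KO glands (adjusted p of the difference 0.00544). The KO P0 arrays had brown adipocyte scores of -0.10 to 0.49, below the 1.10 to 1.95 of 3 WT P0 arrays, and the part of this in the respiratory difference was not tested. Fibroblast and collagen genes had a median of -0.31 in WT and -1.11 in KO glands, with 14 of 24 differences called. Pdgfrb, a PDGF receptor of stromal cells, read 10.08, 9.81, 10.04 and 9.87 in WT P15 glands and 10.15, 9.96, 10.23 and 10.13 in WT P0 glands, a change of -0.17 ± 0.10, while KO glands changed by -1.33 ± 0.10 (difference 1.16 ± 0.14, adjusted p = 3.55e-05). Sec61a1 rose by 0.79 ± 0.08 in WT glands and changed by 0.09 ± 0.08 in KO glands (difference 0.69 ± 0.11, adjusted p = 0.000247). Slc7a5, Nrg1 and Tc2n rose in both genotypes, more in WT by 1.47 ± 0.32, 1.61 ± 0.37 and 1.80 ± 0.39. Slpi fell by 1.29 ± 0.36 in WT glands and rose by 0.96 ± 0.36 in KO glands (difference -2.25 ± 0.51). The smallest p-values of the difference also included Ccnt1, cyclin T1, which rose by 1.09 ± 0.08 in WT glands and changed by 0.18 ± 0.08 in KO glands. Mitosis genes had medians of 1.04 in WT and -0.04 in KO glands, and limma called none of the 25 differences, with 16 at an unadjusted p under 0.05. KO P0 replicate 4 had a mitosis score of 0.86, against -0.82 to -0.24 in the other KO P0 arrays. Without it the KO median was 0.37, and without WT P0 replicate 2 limma called 7 of the 25 differences. For Ccna2 the difference was 1.98 ± 0.68 (adjusted p = 0.0607).

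**Figure D5:**
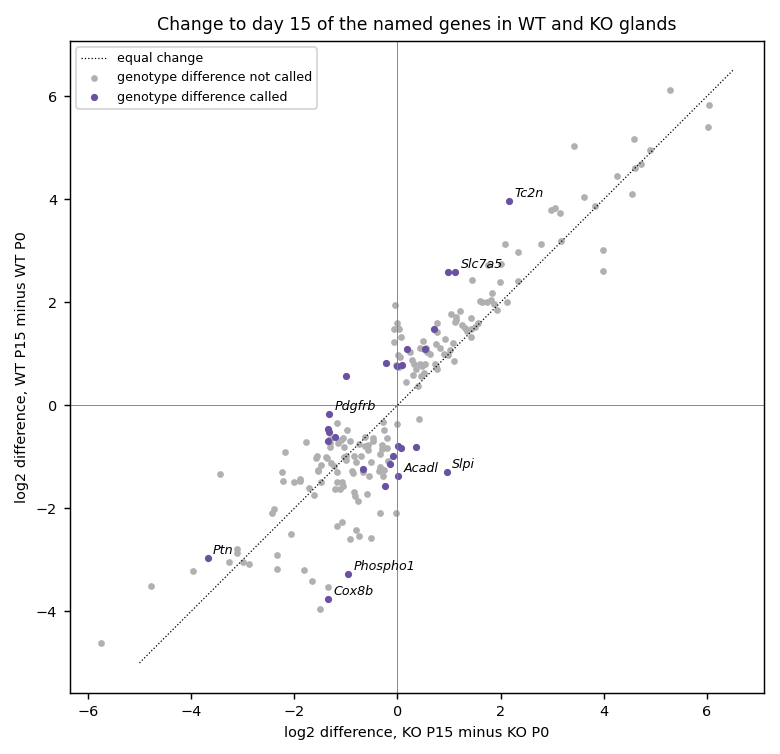
Log2 difference from P0 to P15 of the named genes in WT glands (vertical) and KO glands (horizontal); purple points are genes whose WT minus KO difference was called, and the dotted line is equal change. Wap lies close to the line (5.82 in WT and 6.03 in KO glands), while Cox8b fell more in WT glands and Tc2n rose more. The WT P15 values of Wap lay near the highest value of the table.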

How the data were processed

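RNA of whole mammary glands was prepared with the RNeasy Plus mini kit, amplified with the Ambion WT Expression kit and hybridised to Affymetrix arrays, per the labels' protocols. The authors deposited 1 log2 intensity for each of 34760 probe sets and 37 arrays; affy is the tool named in the submitters' processing notes, and how the values were normalised is not given in the sources used here. Day 15 is missing from the labels' protocol, which names days 3, 7 and 10, and is given by the titles and the series' design text. No depth applies to arrays, and the number of arrays limits the precision.

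Genes were named from GEO's platform annotation, in which 21640 probe sets have 1 symbol, 1321 have several and 11799 have none named here, and symbols were updated through RefSeq (19855 genes matched). For the 954 genes with over 1 probe set, the probe set of highest mean was used. Genes over 4.96, the 25th percentile of all values, in at least 3 arrays were tested, which kept 16865 of 19937 and left out 3072. One mean per group was fitted to all 37 arrays with limma 3.58.1 in R 4.3.3 (lmFit and eBayes), p-values were two-sided with Benjamini-Hochberg adjustment, and the procedure was tested on simulated data. The genotype comparison is the contrast of the WT change minus the KO change in that fit.

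The members and the gene lists were chosen with earlier results of these data known, so no list was tested as a set. Of 612 list entries in 36 lists, 570 were measured and 569 tested. Named genes are Ptpn1, the 15 largest rises and 15 largest falls among called genes whose groups do not overlap, up to 6 called members of each list by size of change, up to 2 members with the smallest p where none was called, and the 5 genes with the smallest p in the genotype comparison, leaving out predicted genes. Promoters are the 250 bases before the start site in the RefSeq table. Alternatives changed the filter, the probe sets, the scaling (quantile or median), the variance prior, array weights, the arrays fitted (each left out in turn), a muscle covariate or a replicate block. Arrays with the same replicate number in WT P15 and WT P0 had deviations from their group means that correlated at -0.018 to 0.031, so the numbers were not taken as pairs.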

Additional observations from a re-analysis of the deposited data

Results flagged for a closer look

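Among 426 groups of 4 arrays, for 213 named genes at WT P15 and WT P0, 25 held an array far from the others by Dixon's criterion (gap over range above 0.829), where chance flags about 1 in 20 groups, and 15 of the 25 were WT P0 replicate 2. In WT P0 replicate 2, Dgat1 read 10.09, Acacb 9.69, Gpam 10.66, Elovl3 5.93 and Lpo 5.50, all below the other P0 arrays, while Hp read 11.46, Shmt2 8.97 and Wnt5b 8.06, all above them. WT P0 replicate 4 stood apart for Rgs16 at 8.06, above the others, and WT P0 replicate 1 for Cry1 at 6.80, below the others. Among the P15 arrays, Phospho1 read 5.77 and Clic6 4.90 in replicates 4 and 2, Lao1 read 11.88 in replicate 3, and these 3 values were low, while Esr1 read 9.15 in replicate 1, above the others.

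The change to P15 differed between genotypes, by the limma contrast, for 18 of the genes described above. That contrast called 10.1% of all genes tested. Pdgfrb and Ccnt1 were named for their small p in it, so the 18 are listed as single genes and not as a share. The change was more positive in WT than in KO glands for Tc2n (by 1.80), Nrg1 (1.61), Slc7a5 (1.47), Pdgfrb (1.16), Ccnt1 (0.92), Slc2a1 (0.77), Ptn (0.72), Sec61a1 (0.69), Btc (0.60) and Sec23b (0.56). It was more negative in WT than in KO glands for Cox8b (-2.40), Phospho1 (-2.33), Slpi (-2.25), Acadl (-1.37), Acadvl (-1.32), Sdhb (-1.01), Uqcrfs1 (-0.91) and Jun (-0.57). With any 1 of the 16 arrays of both genotypes left out, 12 of the 18 were called each time, while the call was lost in 1 case for Acadvl, 8 for Ptn, 8 for Phospho1, 10 for Jun, 13 for Btc and 13 for Uqcrfs1.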

How the results depend on the processing

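After median centring 2230 genes were higher and 8433 lower, a further quantile normalisation gave 3097 and 7527, and testing all probe sets, gave 8751 higher. With 1 array left out, 3270 to 3933 genes were higher, 4086 to 4836 lower and 1256 to 2598 differed between genotypes, with 2598 being the count without WT P0 replicate 2. Array weights gave 3101 genes differing between genotypes. Without WT P0 replicates 2 and 4, an alternative chosen after seeing the data, 3474 were higher, 4347 lower and 1786 differed between genotypes. With the replicate number as a block these counts were 3559, 4509 and 1569. Over all alternatives, named genes lost their call in 116 cases and gained one in 3 of the 3834 checked, and no called gene changed sign. List medians moved by 0.2 or more in 56 of 648 cases. The median of the skeletal muscle list was 0.14 with the muscle score as covariate, but that score is made from the same list, so this value does not test it. Centring gave 17 fibroblast, 13 Wnt, 12 cholesterol and 4 transport genes lower, and array weights 17 DNA replication genes higher, 13 macrophage, 11 cholesterol and 9 fatty acid synthesis genes lower. Genes under 4.96, such as Ido1 at WT P15, lie in the lowest 25 percent of all values, and their differences are limited by that floor of signal.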
